A study of Mus musculus with 54 samples.

Results

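Folliculin, encoded by Flcn, was removed from mouse hepatocytes with or without the transcription factor TFE3, and the comparison described here is that of livers labelled DKO (Flcn/Tfe3 double knock-out) with Control livers on AMLN diet, 3 RNA-seq libraries against 3, over all 13815 genes of the deposited table. It concerns what differed from Control in livers labelled as lacking both Flcn and Tfe3, and how far DKO replicate 1 departed from the other two. These 6 libraries are 6 of 15 RNA-seq libraries and of 54 samples in the series. All mice carried Flcn lox/lox. Control mice received an AAV8 virus expressing GFP and LiFKO mice the same virus expressing Cre, both from the TBG promoter, which is active in hepatocytes, so that other liver cells keep Flcn. DKO mice were Flcn lox/lox; Tfe3 -/Y animals by their labels, a genotype in which Tfe3 is disrupted in the whole body, and received the Cre virus. About a week after the virus, mice started 17 to 18.5 weeks of AMLN diet (used to bring on steatohepatitis through its fat, fructose and cholesterol) or of normal chow, and livers were taken after a fast of 4 to 6 hours. The other groups used below are AMLN LiFKO, chow Control and chow LiFKO, with 3 libraries each. No RNA-seq group lacked Tfe3 alone, and the DKO mice came from a line of their own, so a difference between DKO and Control may belong to Flcn, to Tfe3 or to the line, and these cannot be told apart. The labels do not say that each library is a separate mouse, so the p-values measure the spread between these libraries only.

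Folliculin acts with its FNIP partners at the lysosome as a GTPase-activating protein for RagC and RagD, which lets mTORC1 phosphorylate TFEB and TFE3 and hold them in the cytoplasm. Without folliculin these factors enter the nucleus and bind E-box motifs in genes of lysosomes, autophagy and energy metabolism, while mTORC1 remains able to act on its other substrates. In liver, TFE3 shares this work with its relatives TFEB, MITF and TFEC, which stay intact in a Tfe3 knockout.

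Values are the authors' log2 expression values, on which a difference of 1 is a 2-fold change. A gene is called when the Benjamini-Hochberg adjusted p of limma's test over all 13815 genes is under 0.05, and SE is the standard error of the log2 fold change. Replicate correlations within a group were 0.9706 to 0.9878. Levels of hepatocyte markers, as the mean log2 value of 24 genes, were 16.07, 16.23 and 16.33 in AMLN Control and 16.25, 16.25 and 16.33 in DKO, so both groups were liver by these genes. Because whole liver was measured, fewer cells of a type and less RNA per cell cannot be told apart.

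The deleted genes were read first. Flcn (ENSMUSG00000032633, mm9 chr11:59604910-59623518) was at 10.98, 10.92 and 11.06 in AMLN Control, 10.25, 10.56 and 10.43 in LiFKO and 9.12, 9.45 and 9.91 in DKO. No library of one group overlapped another, and DKO was lowest in all 3. The DKO fold was -1.49 (SE 0.17, adjusted p = 0.000882) against Control and -0.92 (adjusted p = 0.00242) against LiFKO, in which the fold against Control was -0.57. Tfe3 (ENSMUSG00000000134, mm9 chrX:7339686-7352328) stood at 10.20, 10.30 and 10.23 in Control, 9.92, 10.02 and 10.07 in LiFKO, and 10.20, 9.88 and 9.89 in DKO. DKO replicate 1 thus lay at the level of Control for Tfe3, and the fold of -0.25 (SE 0.12, adjusted p = 0.384) did not pass the test. These are values over the whole gene, and a deletion that leaves a transcript is not read by them, so Tfe3 loss could not be checked in the libraries labelled DKO. Tfeb was at 9.02, 9.05 and 9.28 in DKO against 8.78, 9.17 and 9.01 in Control (fold 0.13, adjusted p = 0.715), and Mitf (fold -0.09, adjusted p = 0.936) and Tfec (fold -0.38, adjusted p = 0.61) were not called either.

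Against Control, 62 genes rose in DKO and 28 fell, 90 in all, which is 0.651% of the genes tested (0.449% up and 0.203% down). On the same diet LiFKO differed from Control in 2722 genes (19.7%), and DKO differed from LiFKO in 1523 (11.0%). In all 90 genes the DKO and Control libraries did not overlap, which choosing genes by p from the same libraries favours, so it adds no support. Of all genes, 2314 (16.7%) had groups that did not overlap. Of the 90, 50 had a log2 fold of at least 1 in size, 37 of them up and 13 down. The calls were uneven over the libraries: 24 genes were called without Control replicate 1, 35 without DKO replicate 2 and 26 without DKO replicate 3, and 231 without DKO replicate 1. Of the 90 genes, 19 were called whichever of the 6 libraries was left out, and 43 in at most 2 of these 6 fits. None changed sign. The 2 X-linked genes called were 2 of 491, and none of the 45 genes within 5 Mb of Tfe3 was called.

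**Figure D1:**
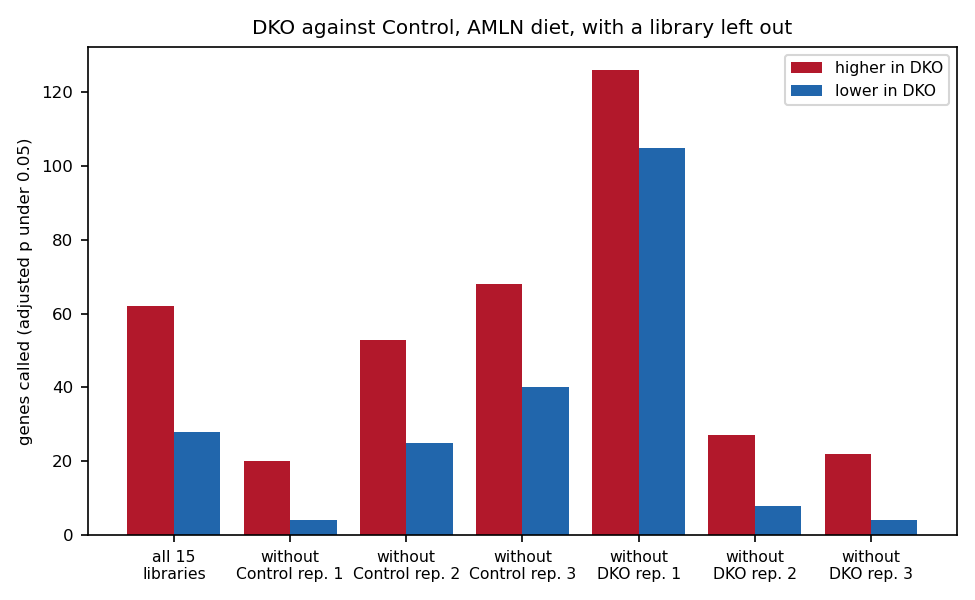
Number of genes called higher (red) or lower (blue) in DKO than in Control on AMLN diet, with all 15 libraries and with 1 of the 6 Control and DKO libraries left out of the fit. The counts are 62 and 28 with all libraries, 126 and 105 without DKO replicate 1, and 20 and 4 without Control replicate 1.

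Most of the called genes moved the way they did in LiFKO. LiFKO and DKO were compared with the same 3 Control libraries, so chance differences of those libraries enter both folds, and the values are given side by side. In both comparisons 82 of the 90 genes were called in the same direction, 58 up and 24 down. The fold was smaller in DKO than in LiFKO in 60 of the 82. DKO against LiFKO was itself called in 32 of the 82, in 30 with the smaller and in 2 with the larger fold in DKO, and in 50 it was not called, which does not show that the levels were equal. Those 2 were Pik3c2g and Flcn, the deleted gene itself, which is counted in the 82 and in the 90. Of the other 8, 4 were called against both Control and LiFKO in the same direction and not in LiFKO (Irs1, Ccrn4l and Ppp1r10 up, Gbp1 down), 1 went against LiFKO (Fuca2), and Nr4a1, Bst2 and Mocos were called in neither LiFKO against Control nor DKO against LiFKO.

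**Figure D2:**
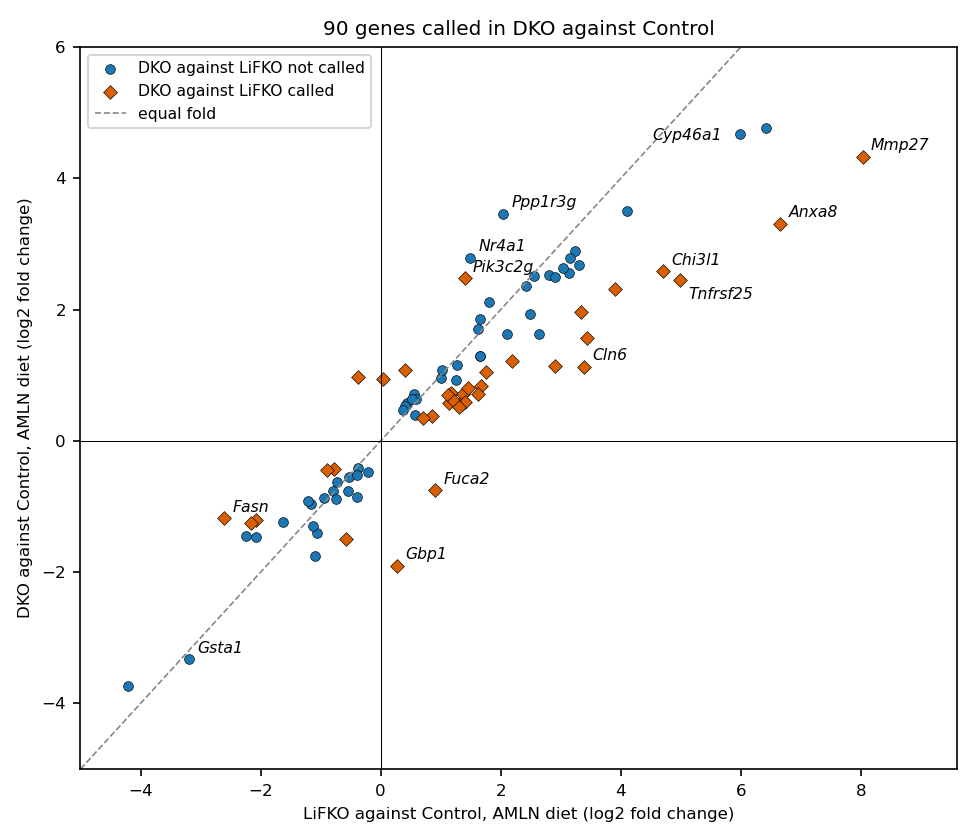
Log2 fold change against Control on AMLN diet of the 90 called genes, in LiFKO (horizontal) and in DKO (vertical), with orange diamonds for genes called in DKO against LiFKO and a dashed line of equal folds. Both axes use the same Control libraries. Most points lie in the 2 quadrants of equal sign, and 60 of the 82 genes called the same way in both have the smaller fold in DKO.

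Among the largest rises were those of Mmp27, Cyp46a1, Slco1a4 and Dsg1c, which have roles in matrix, sterol metabolism, transport and adhesion. Mmp27 (mm9 chr9:7571396-7581885), a matrix metalloproteinase, was at 7.17, 6.79 and 6.20 in Control, 14.75, 14.74 and 14.76 in LiFKO and 10.83, 11.02 and 11.30 in DKO. Its 3 groups were far apart, and DKO lay between the others: the fold was 4.33 (SE 0.19, adjusted p = 1.15e-08) against Control, 8.03 in LiFKO, and -3.70 (adjusted p = 5.03e-08) for DKO against LiFKO. Cyp46a1 (mm9 chr12:109572587-109600441), which encodes cholesterol 24-hydroxylase, was at 7.79, 8.58 and 7.0 in Control, 13.59, 13.51 and 14.20 in LiFKO and 10.84, 12.99 and 13.59 in DKO. Here DKO replicates 2 and 3 reached or approached the LiFKO range and replicate 1 did not. The DKO fold was 4.68 (SE 0.54, adjusted p = 0.000915), and DKO against LiFKO was not called (adjusted p = 0.145). Slco1a4, a transporter that takes organic anions and bile acids into the hepatocyte, stood at 10.17, 10.44 and 10.66 in Control and at 12.09, 13.20 and 13.46 in DKO, again with replicate 1 lowest, for a fold of 2.49 (SE 0.26, adjusted p = 0.000664) beside 2.90 in LiFKO. Dsg1c, a desmosomal cadherin, was at 9.11, 9.83 and 9.67 in Control and 11.81, 12.52 and 12.62 in DKO (fold 2.78, SE 0.34, adjusted p = 0.00147, LiFKO 3.16). Its neighbours Dsg1a (2.89) and Dsg1b (2.56), chosen here after their values were seen, also rose, and reads of such close copies can be shared between them. All these genes were called in each of the 6 fits with a library left out.

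Other genes that rose with the fold of LiFKO or close to it were Prex2, an exchange factor for Rac, and Tmtc2, an enzyme of the endoplasmic reticulum. Prex2 was at 9.07, 8.53 and 8.49 in Control, 10.52, 9.87 and 10.56 in LiFKO and 10.56, 10.13 and 10.54 in DKO, with a DKO fold of 1.71 (SE 0.21, adjusted p = 0.00143) and a LiFKO fold of 1.62. Tmtc2 had a fold of 1.08 (SE 0.16, adjusted p = 0.0072) in DKO and 1.02 in LiFKO. Both were called in all 6 fits with a library left out. The transporter Abca8a (1.05) and Agxt2l1 (1.29), an enzyme of phosphoethanolamine breakdown, were each called in 2 of those 6. Both were lost without Control 1, DKO 2 or DKO 3, Abca8a also without Control 2 and Agxt2l1 without Control 3, and their lowest folds were 0.90 and 1.02. Among called genes that the naming rule did not reach and that were picked after their values were seen, Anxa8 (3.31, LiFKO 6.66), Adrb3 (1.96, LiFKO 3.34), Gnai1 (2.53, LiFKO 2.81) and Tuba8 (2.31, LiFKO 3.91) were called in all 6. Lepr, the leptin receptor, rose by 2.36 beside 2.42 in LiFKO and was lost without Control 1, Control 2 or DKO 3.

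**Figure D3:**
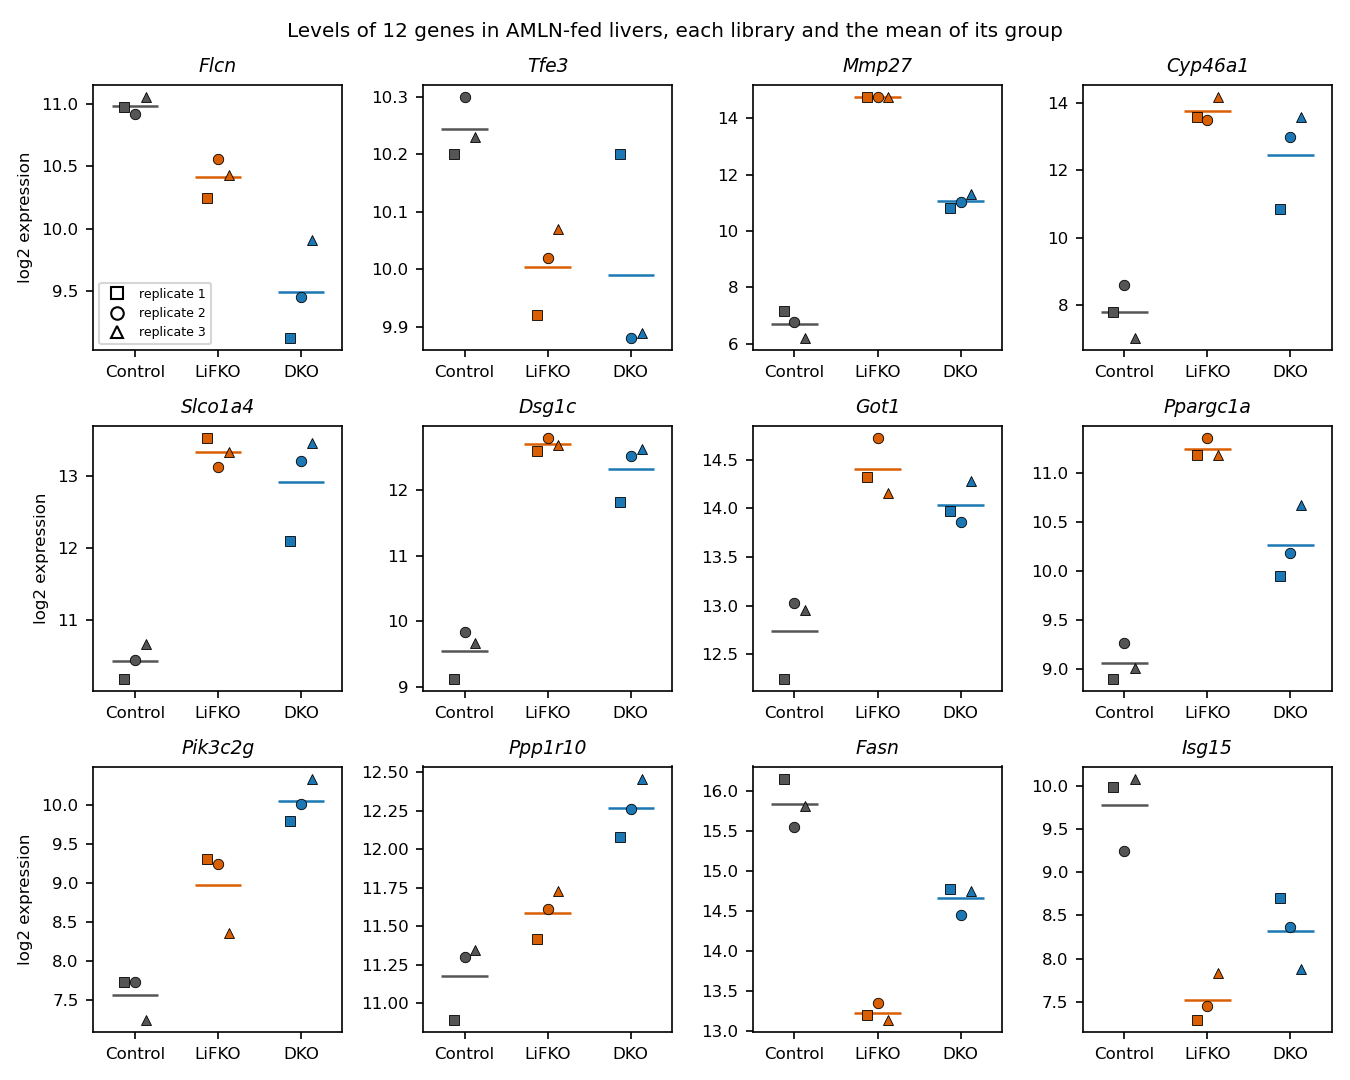
Log2 expression of 12 genes in the AMLN-fed Control, LiFKO and DKO libraries (squares, circles and triangles for replicates 1, 2 and 3) with the mean of each group as a line; each panel has its own vertical range, which does not start at 0. DKO lies between Control and LiFKO for Mmp27, Ppargc1a and Fasn, beyond LiFKO for Flcn, Pik3c2g and Ppp1r10, and DKO replicate 1 is the lowest DKO library for Cyp46a1, Slco1a4 and Dsg1c.

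Few genes of mitochondria and amino acid breakdown passed the test, most with folds under 1. Ppargc1a (mm9 chr5:51845488-51958964), which encodes the coactivator PGC-1alpha of mitochondrial and fasting genes, was at 8.89, 9.26 and 9.01 in Control, 11.18, 11.36 and 11.18 in LiFKO and 9.95, 10.18 and 10.67 in DKO. The 3 groups did not overlap, with DKO in the middle: its fold was 1.21 (SE 0.23, adjusted p = 0.0284) against 2.18 in LiFKO, and DKO was 0.97 below LiFKO (fold -0.97, adjusted p = 0.0129). The call was lost without Control 1, Control 3, DKO 2 or DKO 3, with folds between 1.01 and 1.37 over the 6 fits. In the list of respiratory chain and citric acid cycle genes, 2 of 29 rose, among them the succinate dehydrogenase subunit Sdhd (0.35, adjusted p = 0.0309), and none fell. Of all genes, 0.449% rose. Over the list the median fold was 0.24, against 0.01 over all genes, and in 22 of the 29 all DKO libraries were above all Control libraries, against 8.66% of all genes. At an unadjusted p under 0.05, 18 of the 29 were higher, against 7.27% of all genes. In LiFKO 25 of the 29 rose, with a median of 0.55. Only Sdhd, and only without DKO 1, was called in the 6 fits with a library left out, and none of the 29 in the other 5, while the list's median stayed between 0.20 and 0.28.

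Amino acid catabolism and the urea cycle had 3 of 25 genes up, against 0.449% of all genes, and none down, with a median fold of 0.43 in both DKO and LiFKO. Got1, the cytosolic aspartate aminotransferase, was at 12.24, 13.03 and 12.95 in Control, 14.32, 14.73 and 14.16 in LiFKO and 13.97, 13.86 and 14.28 in DKO. DKO was above every Control library and overlapped LiFKO, and its fold was 1.30 (SE 0.22, adjusted p = 0.0185). Prodh, proline dehydrogenase, was at 12.98, 13.30 and 12.96 in Control and 13.61, 13.76 and 13.66 in DKO, and rose by 0.60 (adjusted p = 0.0421), beside 1.22 in LiFKO. Without Control 1 or without DKO 3 none of the 25 was called, and the medians were 0.27 and 0.36. At an unadjusted p under 0.05, 15 of the 25 were higher in DKO, against 7.27% of all genes, and none was lower.

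Lysosomal genes, the known targets of TFE3, had almost no calls against Control. Of 38 lysosomal hydrolases and cofactors, 1 rose and none fell, with a median fold of -0.08, where 26 had risen in LiFKO with a median of 0.56 and 27 were lower in DKO than in LiFKO. Of all genes, 0.449% rose in DKO. Of 29 lysosomal membrane and V-ATPase genes none was called (median -0.11), where 23 rose in LiFKO, and 4 were lower at an unadjusted p under 0.05, against 6.23% of all genes, and none higher. Without DKO 1, 3 of the 38 hydrolase genes rose and 2 of the 29 membrane genes fell. The hydrolase list's call was Cln6, a transmembrane protein of the endoplasmic reticulum needed for lysosomal enzymes, at 8.98, 9.21 and 8.33 in Control, 12.26, 12.09 and 12.35 in LiFKO and 9.96, 9.99 and 9.98 in DKO (fold 1.13, SE 0.22, adjusted p = 0.0322). It was lost without Control 1, Control 3, DKO 2 or DKO 3. Gabarapl1, an ATG8 protein of the autophagosome membrane, was the 1 of 28 autophagy genes called, against 0.651% of all genes. It was at 14.39, 14.50 and 14.19 in Control, 15.77, 15.57 and 15.80 in LiFKO and 14.90, 15.04 and 14.97 in DKO (fold 0.61, SE 0.12, adjusted p = 0.0297), and was lost without the same 4 libraries. Rragd, which encodes the RagD substrate of folliculin and stood 4.73 higher in LiFKO, was at 9.16, 8.14 and 8.12 in DKO and 7.95, 8.49 and 7.90 in Control, a fold of 0.36 (adjusted p = 0.535) in which DKO replicate 1 alone was above Control. Fnip2, the folliculin partner, had 0.38 (adjusted p = 0.38) beside 2.32 in LiFKO.

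Pik3c2g and Irs1, genes of insulin signalling, were higher in DKO than in both Control and LiFKO. Pik3c2g, a class II phosphoinositide kinase of liver, was at 7.73, 7.73 and 7.24 in Control, 9.31, 9.24 and 8.36 in LiFKO and 9.79, 10.02 and 10.34 in DKO. It rose by 2.48 (SE 0.23, adjusted p = 0.000163) against Control and by 1.08 (adjusted p = 0.00643) against LiFKO, and was called in all 6 fits with a library left out; it was chosen after its values were seen. Irs1, the insulin receptor substrate, also chosen so, was at 9.31, 9.26 and 9.13 in Control, 9.45, 9.42 and 8.97 in LiFKO and 9.96, 10.48 and 10.07 in DKO, for folds of 0.94 (adjusted p = 0.0294) against Control and 0.89 (adjusted p = 0.00439) against LiFKO. It was called only without DKO 1 among the 6 left-out fits, with folds of 0.78 to 1.04. Ppp1r3g, a subunit that brings protein phosphatase 1 to glycogen, was at 7.64, 8.37 and 6.74 in Control and 10.89, 11.24 and 11.01 in DKO (fold 3.46, SE 0.57, adjusted p = 0.0154), while LiFKO, at 10.33, 10.30 and 8.25, had 2.04 and did not differ from DKO by the test (adjusted p = 0.137). It was lost without Control 1, DKO 2 or DKO 3.

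Ppp1r10 (mm9 chr17:36053379-36069226), a nuclear subunit of protein phosphatase 1, was at 10.89, 11.30 and 11.35 in Control, 11.42, 11.61 and 11.73 in LiFKO and 12.08, 12.26 and 12.46 in DKO. All DKO libraries were above all others, with a fold of 1.08 (SE 0.14, adjusted p = 0.0019) against Control and 0.68 (adjusted p = 0.00544) against LiFKO, in every fit with a library left out for the first of these. LiFKO itself was not called against Control on AMLN diet (fold 0.41, adjusted p = 0.0532) and was lower than Control on chow (fold -0.44, adjusted p = 0.0306). Ccrn4l, which encodes nocturnin, was at 10.62, 10.80 and 11.34 in Control, 10.21, 10.85 and 10.60 in LiFKO and 11.86, 11.65 and 12.19 in DKO (fold 0.98, SE 0.19, adjusted p = 0.0309), and was lost without Control 1, Control 2 or DKO 3. In the other direction, the fucosidase gene Fuca2 was below Control in DKO (fold -0.75, adjusted p = 0.0309; lost without Control 1, Control 3, DKO 2 or DKO 3) and above it in LiFKO (fold 0.91, adjusted p = 0.000513), and DKO differed from LiFKO by -1.66 (adjusted p = 8.17e-06).

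Among the genes that fell, Fasn, fatty acid synthase, was at 16.15, 15.55 and 15.81 in Control, 13.20, 13.35 and 13.13 in LiFKO and 14.77, 14.45 and 14.74 in DKO. It kept part of the LiFKO decrease: the fold was -1.18 (SE 0.24, adjusted p = 0.0421) in DKO and -2.61 in LiFKO, and DKO exceeded LiFKO by 1.43 (adjusted p = 0.00163). The DKO call was lost without Control 1, Control 3, DKO 2 or DKO 3, over folds of -1.33 to -1.03. Fasn was the 1 of 21 lipogenesis genes called, against 0.651% of all genes. The list's median was -0.08, where 13 had fallen in LiFKO with a median of -1.31. Srebf1, which encodes the lipogenic regulator SREBP-1, was at 14.72, 14.74 and 14.78 in DKO and 14.93, 14.72 and 15.07 in Control (fold -0.16, adjusted p = 0.751). Scd1 had the same value, 20.65, in every Control and DKO library because quantile normalization gives 1 value to each rank, so its fold of 0.00 holds no spread. Of 24 cholesterol synthesis and uptake genes (median -0.27) and 38 cytochrome P450 genes (median -0.08), none was called in DKO, where 14 and 19 fell in LiFKO. At an unadjusted p under 0.05, 4 of the first and 5 of the second were lower in DKO, against 6.23% of all genes, and 1 and 2 were higher, against 7.27%.

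Few interferon-response genes passed the test in DKO, while most had DKO below Control in every library. Interferons switch on genes that defend against viruses, and Isg15, Ifit1 and Bst2 are 3 of these. Of 24 genes of the list, these 3 fell (0.203% of all genes did) and none rose, with a median fold of -0.86 beside -0.78 in LiFKO, where 11 fell. In LiFKO against Control on chow, 5 of the 24 fell and 1 rose, with a median of -0.19, where 25.7% of all genes were called. In 20 of the 24 every DKO library lay below every Control library, against 8.09% of all genes, and 21 were lower at an unadjusted p under 0.05, against 6.23%. Isg15, a ubiquitin-like modifier, was at 9.98, 9.25 and 10.08 in Control, 7.29, 7.46 and 7.84 in LiFKO and 8.70, 8.37 and 7.88 in DKO (fold -1.45, SE 0.27, adjusted p = 0.0294). Bst2, tetherin, was at 13.42, 13.26 and 13.83 in Control and 12.74, 12.65 and 12.54 in DKO (fold -0.86, SE 0.15, adjusted p = 0.0191), while in LiFKO the fold was -0.39 and not called. Ifi27l1, outside the list, was at 13.34, 13.03 and 13.10 in Control, 11.28, 11.01 and 10.97 in LiFKO and 11.91, 11.54 and 11.63 in DKO (fold -1.47, SE 0.21, adjusted p = 0.00537) and was called in all 6 fits with a library left out. Ube2l6, the enzyme that conjugates ISG15, fell by 0.91 (adjusted p = 0.0309), and Psme1, a proteasome activator subunit, by 0.62 (adjusted p = 0.0298). Gbp1 (fold -1.90), Mx2 (-1.76), Oasl1 (-1.25) and Cmpk2 (-1.23), interferon-induced genes chosen after their values were seen, fell too, and Gbp1 did so against LiFKO as well (adjusted p = 0.000846). Mx2 was called in all 6 fits with a library left out, and Isg15, Ifit1, Bst2, Ube2l6, Psme1, Gbp1, Oasl1 and Cmpk2 were each lost without Control 1, DKO 2 or DKO 3.

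These counts depended on single libraries. None of the 24 list genes was called without Control 1, DKO 2 or DKO 3, while 4 were without Control 2 or DKO 1 and 2 without Control 3; the median fold ranged from -1.0 to -0.67. No immune-cell marker passed the test beside the list. Of 28 macrophage markers none was called, with a median fold of -0.29 and mean levels of 10.18, 10.06 and 10.07 in Control and 10.39, 9.50 and 9.50 in DKO, with DKO replicate 1 above every Control library. At an unadjusted p under 0.05, 1 of the 28 was higher and 2 were lower, against 7.27% and 6.23% of all genes. The 7 lymphocyte markers measured, of 28 listed, had mean levels of 8.30, 8.13 and 8.22 in Control and 7.75, 7.63 and 7.15 in DKO, with none called. Their median fold was -0.67, and at the unadjusted limit 2 were lower and none higher. Of 4 neutrophil markers measured (median -0.69), 1 was lower and none higher at that limit. Of 26 antigen presentation genes (median -0.48), none was called, and 6 were lower and none higher at the unadjusted limit. The part of immune cells in the interferon values was not tested.

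NRF2 targets, the genes of glutathione and redox defence, had 3 of 21 down, against 0.203% of all genes, and none up, with a median of -0.56 beside -1.12 in LiFKO. At an unadjusted p under 0.05, 12 of the 21 were lower, against 6.23% of all genes. Gsta1, a glutathione transferase, was at 12.44, 12.63 and 10.56 in Control, 8.78, 7.71 and 9.57 in LiFKO and 9.92, 8.55 and 7.17 in DKO, so both Control and DKO were spread over 2 log2 units or more, and the fold was -3.33 (SE 0.68, adjusted p = 0.0421). Reads of Gsta1 may be shared with a near-identical copy, Gm3776, which behaved alike (fold -3.73). Glutathione reductase Gsr fell by 0.43 (adjusted p = 0.0421) and thioredoxin reductase Txnrd1 by 0.42 (adjusted p = 0.0471), both called only without DKO 1 among the 6 left-out fits. Without Control 3, in which Gsta1 was lowest of its group, 6 NRF2 targets fell and the median was -0.95; without Control 1, Control 2, DKO 2 or DKO 3 none was called.

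Tubulin genes, which encode the subunits of microtubules, fell in part. Of 10 measured, a family looked at after its values were seen, Tubb4b (fold -0.96, adjusted p = 0.028), Tuba1c (-0.89, adjusted p = 0.00849) and Tuba1b (-0.77, adjusted p = 0.0365) fell and Tuba8 rose, and 9 of the 10 folds were negative. Of all genes, 0.203% fell, 0.449% rose and 48.9% had a negative fold. Tuba1c was at 12.53, 12.12 and 12.33 in Control, 11.33, 11.61 and 11.76 in LiFKO and 11.67, 11.21 and 11.40 in DKO. It was called in 5 of the 6 fits with a library left out, all but that without Control 1, whereas Tuba1b and Tubb4b were called in 2 and 3. In LiFKO 8 fell and 1 rose, where 19.7% of all genes were called in either direction. On chow, 3 fell and 1 rose in LiFKO against Control, where 25.7% of all genes were called. The alpha-tubulin copies are alike in sequence, so counts may be shared among them.

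None of 23 cell cycle genes was called. In 15 of them every DKO library was below every Control library, against 8.09% of all genes, and 13 were lower at an unadjusted p under 0.05, against 6.23%. The list had a median of -0.91 beside -1.25 in LiFKO, where 11 fell. LiFKO against Control on chow, which shares no library with DKO and AMLN Control, called none of the 23. The median there was 0.20, and 25.7% of all genes were called. Mki67, the proliferation marker, was at 9.33, 9.07 and 9.62 in Control, 7.72, 7.83 and 7.82 in LiFKO and 8.31, 8.04 and 7.78 in DKO (fold -1.30, adjusted p = 0.279). Without DKO 1, 4 of the 23 fell. Calls among cell type markers were Alas2, the erythroid enzyme that begins heme synthesis (fold -0.87, adjusted p = 0.0203), the only one of 9 erythroid markers to pass, and Stab2, a scavenger receptor of sinusoidal endothelium (0.80, adjusted p = 0.018), the only one of 22 endothelial markers. Both were lost without Control 1 or DKO 3. Over all genes, 0.651% were called. Further lists had 1 call each. These were Slc27a1, a transporter, of 15 fatty acid uptake genes (fold 0.96) and Sult1c2, a sulfotransferase, of 30 conjugation enzymes (1.94). The nuclear receptor Nr4a1 was the call among 14 immediate early genes (2.79). That list had a median of -0.31, and at an unadjusted p under 0.05, 1 of its genes was higher and 2 were lower. Slc27a1 was lost without Control 1, Sult1c2 without Control 1 or DKO 2, and Nr4a1 without Control 1, Control 3, DKO 2 or DKO 3. Mug2, a murinoglobulin protease inhibitor with a close copy, fell by 1.30 (adjusted p = 0.0157), with DKO at 15.61, 14.53 and 14.68 and Control at 16.12, 16.12 and 16.46, and was lost without Control 1, DKO 2 or DKO 3.

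**Figure D4:**
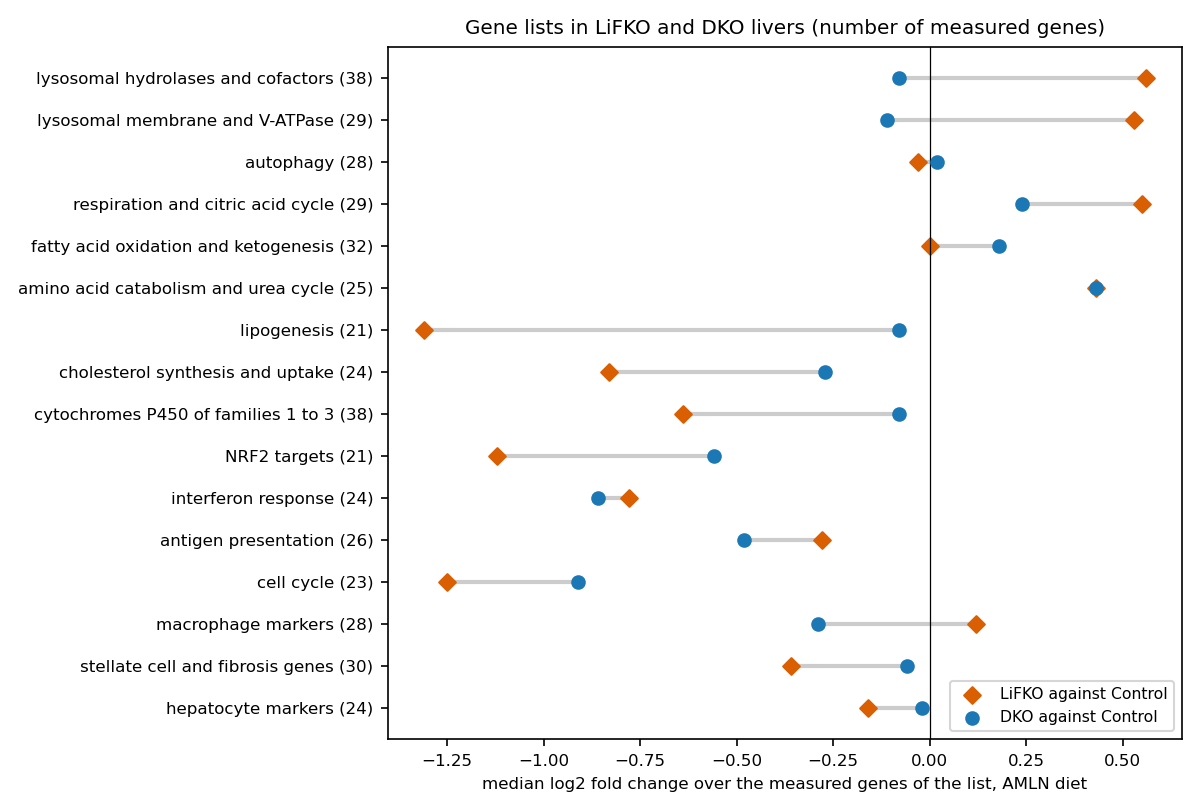
Median log2 fold change against AMLN Control over the measured genes of 16 lists, in LiFKO (orange diamonds) and DKO (blue circles), with the number of genes in brackets and a line joining both values of a list; both use the same Control libraries. The DKO median is near 0 for lysosomal, lipogenesis and P450 genes, and lies at -0.86 for interferon-response, -0.91 for cell cycle and 0.43 for amino acid genes.

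The chow libraries share none with the DKO and Control groups, so the genes that Flcn loss changed on chow were followed in DKO. Both comparisons use the same estimate of spread for a gene, from all 15 libraries, so their calls are not independent. Genes with a low estimate pass more easily in both. LiFKO against Control on chow called 3545 genes (25.7% of those tested), 1723 up and 1822 down. Of the 1723, 49 rose in DKO (2.84%, against 0.449% of all genes) and 1 fell. Of the 1822, 16 fell in DKO (0.878%, against 0.203%) and 1 rose. The sign of the DKO fold was positive in 66.7% of the chow-risen genes, against 51.1% of all genes, and negative in 67.1% of the chow-fallen genes, against 48.9%. The shifts were small: the chow-risen genes had a median of 0.09 in DKO, 0.45 in AMLN LiFKO and 0.70 on chow, and the chow-fallen genes -0.08, -0.32 and -0.58. Shifts from the AMLN Control mean were averaged over all 3545 genes with the sign of the chow change. DKO replicates 1, 2 and 3 stood at 0.185, 0.142 and 0.099, AMLN LiFKO at 0.54 to 0.578, and AMLN Control at 0.014, 0.035 and -0.05. All DKO libraries were thus above all AMLN Control libraries and below all AMLN LiFKO libraries on this measure. The chow libraries, by which the genes were chosen, stood at -0.259 to -0.241 in Control and 0.635 to 0.668 in LiFKO. AMLN Control thus lay above chow Control too, a difference between diets without Flcn loss. Of the 82 genes called alike in DKO and LiFKO on AMLN diet, 65 were also called in that direction on chow. Among the others were Abca8a (chow fold 0.32, adjusted p = 0.265), Pik3c2g (0.36, adjusted p = 0.27) and Coq10b (0.09, adjusted p = 0.695). By list, all 29 respiration and citric acid cycle genes rose in LiFKO on chow (median 0.62). Of 25 amino acid genes 8 rose and 4 fell there (median 0.28), and of 21 NRF2 targets 1 rose and 4 fell (median -0.27).

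TFE3 binding at these genes was described from the authors' pooled peak lists of chow Control liver (11385 peaks) and chow LiFKO liver (26445 peaks), made from livers that have TFE3. Of the 71 called genes whose strand was known from RefSeq, 66 (93.0%) were the nearest gene of at least 1 LiFKO peak, against 79.5% of all 9914 such genes, and 34 (47.9%) had a peak within 1 kb of their start, against 48.8%. For chow Control peaks, 55 of the 71 (77.5%) were the nearest gene, against 53.1% of all such genes, and 22 (31.0%) had a peak within 1 kb, against 24.6%. Genes called up in both DKO and LiFKO had a LiFKO peak within 1 kb in 46.7% of cases (21 of 45), and genes that rose in LiFKO and were not called in DKO in 62.4%. For Control peaks these shares were 24.4% and 38.9%. The strongest peak at a called gene was at Ppp1r10, centred 177 bp after its start (mm9 chr17:36053463-36053649): by the authors' score it ranked 2 of the chow Control list and 3 of the chow LiFKO list. Peaks at Coq10b (rank 1565 of the LiFKO list, centre at -134 bp from the start), Irs1 (rank 13229, -53 bp) and Mmp27 (rank 16875, -56 bp) had lower scores. Ranks hold within a list only.

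Promoters of called genes were searched for CACGTG, the E-box core that TFE3 and its relatives bind; it reads the same on both strands. Sequences are those of RefSeq on GRCm38.p6, 250 bases before to 50 after each start, while peak positions above are on mm9, and the builds were not joined. At least 1 promoter of the gene held the motif in 11 of 47 genes that rose (23.4%) and 1 of 21 that fell (4.8%), against 1136 of 9662 genes (11.8%), and in 17.7% of genes that rose in LiFKO and were not called in DKO. Among the 11, Pigp and Ttc3 lie head to head on opposite strands, and the same motif is counted for both. A match is a description of the letters only. The 250 bases before the start are shown for 4 called genes that hold it, with the motif in capitals, and for Mmp27, the gene with the smallest p, which lacks it. Coq10b, a coenzyme Q binding protein, rose in DKO by 0.71 (adjusted p = 0.0309; lost without Control 1, Control 2, DKO 2 or DKO 3), Pdxk, pyridoxal kinase, by 0.71 (adjusted p = 0.0231; lost without Control 1, DKO 2 or DKO 3) and Irs1 as given above, and the transporter gene Slc35e3 fell by 0.55 (adjusted p = 0.0421; lost without Control 1, Control 2, DKO 1 or DKO 3). Counted from the start site, the first base of the motif lies at -78 in Coq10b, -180 in Pdxk, -115 in Irs1 and -80 in Slc35e3. In order, the windows are chr1:55052520-55052769 (plus strand) for Coq10b, chr10:78464949-78465198 (minus strand) for Pdxk, chr1:82291440-82291689 (minus strand) for Irs1, chr10:117746359-117746608 (minus strand) for Slc35e3 and chr9:7571146-7571395 (plus strand) for Mmp27.
Coq10b: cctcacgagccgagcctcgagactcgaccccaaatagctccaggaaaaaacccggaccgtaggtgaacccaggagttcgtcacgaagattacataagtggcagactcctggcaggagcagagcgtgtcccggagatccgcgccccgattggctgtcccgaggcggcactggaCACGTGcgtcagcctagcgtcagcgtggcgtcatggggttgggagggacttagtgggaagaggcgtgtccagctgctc
Pdxk: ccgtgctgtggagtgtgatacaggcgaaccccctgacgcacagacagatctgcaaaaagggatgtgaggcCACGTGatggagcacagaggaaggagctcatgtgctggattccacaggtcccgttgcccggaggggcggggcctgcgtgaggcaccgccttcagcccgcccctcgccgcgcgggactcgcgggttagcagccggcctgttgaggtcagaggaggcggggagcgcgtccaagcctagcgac
Irs1: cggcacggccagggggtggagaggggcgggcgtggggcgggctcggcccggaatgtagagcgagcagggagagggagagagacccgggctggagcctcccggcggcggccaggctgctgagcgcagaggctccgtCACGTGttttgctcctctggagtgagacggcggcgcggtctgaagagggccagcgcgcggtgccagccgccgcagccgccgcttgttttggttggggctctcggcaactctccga
Slc35e3: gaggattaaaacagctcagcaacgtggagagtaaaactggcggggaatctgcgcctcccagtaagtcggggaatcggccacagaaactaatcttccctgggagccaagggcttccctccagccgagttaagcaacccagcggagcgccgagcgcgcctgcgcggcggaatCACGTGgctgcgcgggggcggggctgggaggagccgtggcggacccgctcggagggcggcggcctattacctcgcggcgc
Mmp27: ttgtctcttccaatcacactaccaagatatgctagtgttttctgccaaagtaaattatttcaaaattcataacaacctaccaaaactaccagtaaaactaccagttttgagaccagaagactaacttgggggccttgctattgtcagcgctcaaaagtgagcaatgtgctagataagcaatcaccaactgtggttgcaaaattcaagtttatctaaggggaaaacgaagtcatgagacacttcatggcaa

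DKO replicate 1 stood apart from the other DKO libraries. It differed from the mean of the other two by more than 2 in 107 of 13815 genes, 55 above and 52 below, against 39 and 72 genes for DKO replicates 2 and 3 and 23 to 61 in each of the other groups' libraries except AMLN Control replicate 3. That library was about as far from its group, with 102 genes, and among genes above the median level it was farther, with 30 genes against 9 for DKO replicate 1. On that count DKO replicate 1 did not stand apart, since AMLN Control replicate 2 had 10 and chow LiFKO replicate 2 had 9. The root mean square departure was 0.498 for DKO 1 and 0.497 for Control 3. Replicate 1 correlated with replicates 2 and 3 at 0.9774 and 0.9706, and those with each other at 0.984, each over genes, which are not independent replicates. On the first principal component of all 15 libraries (33.7% of the variance), DKO 1, 2 and 3 lay together at -15.8, -13.0 and -13.0. The AMLN Control libraries lay between -34.7 and -30.8 there. On the second (23.6%), DKO 1, 2 and 3 lay at 30.0, 18.2 and 2.1, and AMLN Control at 37.0, 31.9 and 11.4. On the third, which held 6.9%, DKO 1 lay at -5.3, DKO 2 and 3 at 27.5 and 34.6, and the AMLN Control libraries between -26.2 and -5.9.

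**Figure D5:**
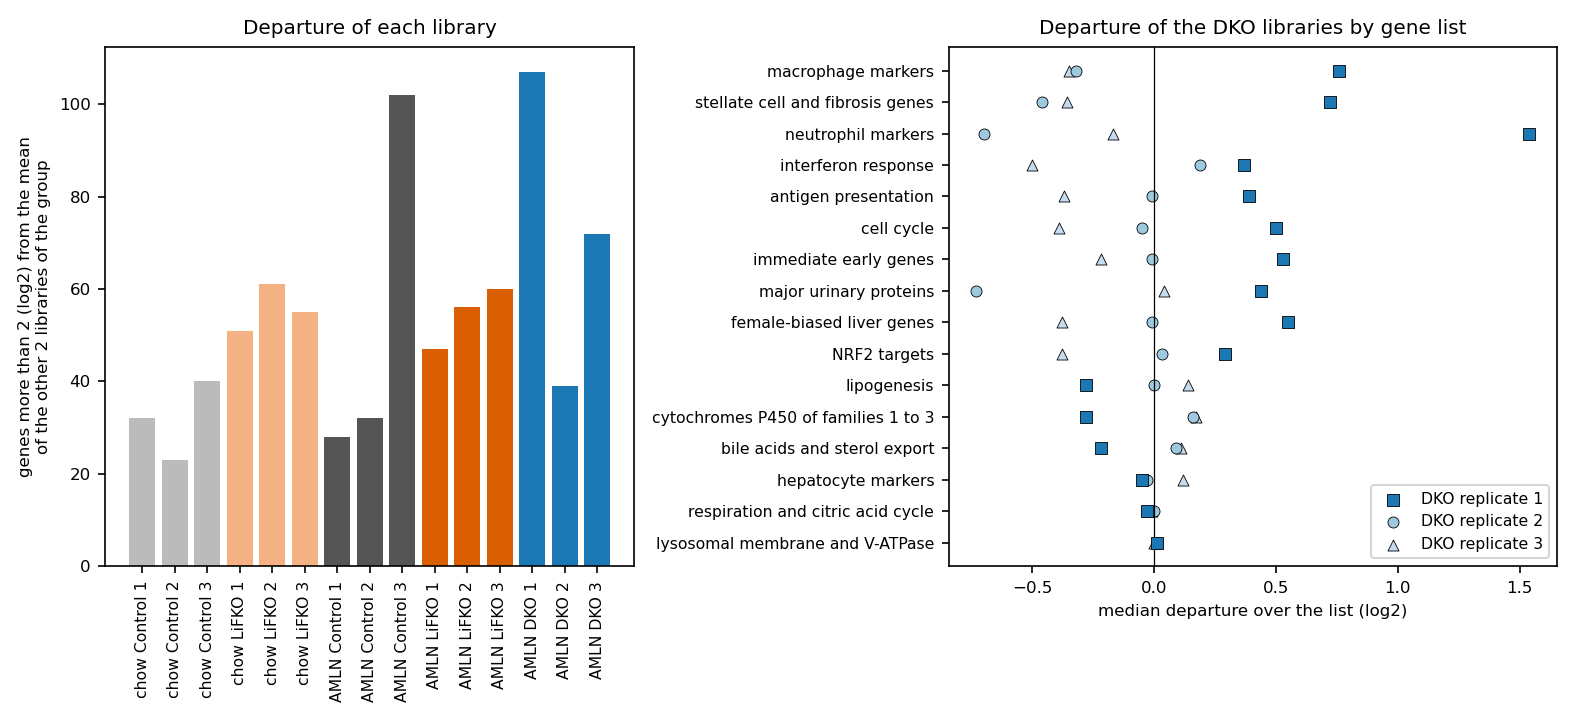
Left, number of genes per library that lie more than 2 (log2) from the mean of the other 2 libraries of the group, for all 15 libraries. Right, median departure (log2) of DKO replicates 1, 2 and 3 over 16 gene lists; DKO 1 and AMLN Control 3 have the most such genes (107 and 102), and DKO 1 is highest in macrophage, stellate cell and neutrophil genes.

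DKO replicate 1 was above replicates 2 and 3 in marker genes of macrophages, stellate cells and neutrophils. Its median departure was 0.76 over 28 macrophage markers, 0.72 over 30 stellate cell and fibrosis genes and 1.54 over the 4 neutrophil markers measured of 13, beside -0.05 over hepatocyte markers, -0.03 over respiration genes and 0.01 over lysosomal membrane genes. Col1a1, the main collagen of scars, was at 10.78, 8.97 and 9.00 in DKO and at 10.70, 10.93 and 9.80 in Control. Trem2, a receptor of lipid-associated macrophages, was at 8.61, 6.43 and 4.83 in DKO and 7.92, 8.07 and 6.55 in Control, and Gpnmb, a glycoprotein of such macrophages, at 10.65, 8.02 and 7.98 in DKO and 9.71, 9.75 and 8.14 in Control. For these genes DKO 1 was above or close to the highest Control library, and DKO 2 and 3 were below the lowest. Lcn2, lipocalin-2, an acute-phase protein, followed the same order, with 11.62, 9.46 and 8.89 in DKO and 11.31, 11.09 and 11.68 in Control. Cidea, a lipid-droplet protein of fatty liver, was at 12.26, 9.50 and 8.72 in DKO, and 10.58, 11.05 and 9.33 in Control. Bcl6, a repressor with sex-dependent levels in liver, was at 11.63 in DKO 1 and 9.47 and 9.71 in the others, with Control at 9.53, 9.30 and 9.91, and Mup17, of the highly similar major urinary proteins, at 16.53, 13.80 and 14.02 in DKO and 14.28, 14.21 and 16.65 in Control. The Mup list departed by 2.44 in Control 3 and 0.44 in DKO 1, so for these genes Control 3 stood farther apart.

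In the opposite direction, Hamp, which encodes the iron hormone hepcidin, was at 11.58 in DKO 1, below every Control library (12.71 to 13.49), and at 15.22 and 14.93 in DKO 2 and 3, above them; a close copy, Hamp2, may share its reads. Slc10a1, the sodium-dependent bile acid transporter NTCP, was at 14.09, 14.92 and 15.24 in DKO against 13.93, 13.88 and 14.22 in Control. Serpina3c, a protease inhibitor chosen after its values were seen, was at 6.24 in DKO 1, within the Control range of 6.07, 6.51 and 6.79, and at 10.38 and 9.88 in DKO 2 and 3. Among the called genes with large folds, replicate 1 departed by -2.44 for Cyp46a1 and -1.24 for Slco1a4, toward Control, and by -0.34 for Mmp27, -0.28 for Ppp1r10 and -0.39 for Pik3c2g.

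Without DKO replicate 1, 126 genes rose and 105 fell, 231 in all or 1.67% of genes. They included 85 of the 90, and 146 were added, 67 up and 79 down; 171 of the 231 were called the same way in LiFKO. Examples picked from the added genes after their values were seen are Serpina3c (fold 3.68, adjusted p = 7.27e-05), Smad9, a BMP-pathway SMAD (2.20, adjusted p = 0.00319), Hamp (2.01, adjusted p = 0.0125), the glycolytic enzyme Pklr (1.32, adjusted p = 0.0362) and Slc10a1 (1.07, adjusted p = 0.00531) among those that rose, and the replication helicase subunits Mcm3 (-1.42, adjusted p = 0.00835) and Mcm2 (-1.33, adjusted p = 0.00481), Lcn2 (-2.19, adjusted p = 0.0317) and Tubb2a (-2.09, adjusted p = 0.013) among those that fell. With 2 DKO libraries this fit estimates the spread over all groups, so their spread is assumed to be like that of the others. Leaving DKO 1 out is a description of its weight in the comparison, and nothing in the labels marks it.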

How the data were processed

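RNA-seq was read from livers in 15 libraries (5 groups of 3, from the labels); only these and the TFE3 peak lists were used. Per the submitters' processing notes, the pipeline used bcl2fastq 2.17, Trimmomatic 0.32, STAR 2.6.0c, SAMtools, featureCounts and limma, on mm9. The authors deposited log2 expression values for 13815 genes, with no counts, so the depth of each library is unknown and limits precision to an extent that cannot be given. The maximum was 21.47 in all libraries and the quartiles ranged over 8.014 to 8.03, 9.791 to 9.799 and 11.293 to 11.296, so values had been quantile normalized. The deposited peak lists give the authors' peak score for pooled libraries, per the file headers.

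Computed here, with limma 3.58.1 in R 4.3.3: 1 model of 5 group means for 15 libraries, leaving 10 degrees of freedom, eBayes with trend, 4 contrasts, two-sided, Benjamini-Hochberg adjusted p under 0.05. In 10 simulated data sets for DKO against Control over 13815 genes, 53 to 76 of 100 genes changed by 1 and 89 to 97 of 100 changed by 2 (log2) were recovered, with 5 to 14 false calls. The simulated noise was normal and independent, with the same spread for a gene in every library. Libraries of unequal quality and departures shared by many genes were not simulated, so these counts may not hold for the real libraries. Departures are differences from the mean of the other libraries of a group. Tables and plots used Python 3.11.15, numpy 2.4.6, pandas 2.3.3 and matplotlib 3.10.9. Strand, needed for distances, was known for 9914 genes (71.8%). A symbol occurred more than once in 27 cases, and lists then used the gene with the highest mean.

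Named genes were Flcn and Tfe3, up to 15 per direction with the largest DKO fold, up to 15 changed alike in LiFKO, up to 10 called only against both other groups, up to 12 per direction by departure of DKO 1, up to 6 per list (45 lists) and a short fixed set; others are said to be chosen afterwards. The comparison, its genes and lists were chosen with earlier results of these data known. Alternatives were the samples fitted, trend, array weights, centring, a filter at the lower quartile, the replicate block and each library left out. There was no pseudocount, as values were log2 already. No p is adjusted over a list alone. Some called genes of the lists are not reported here by name.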

Additional observations from a re-analysis of the deposited data

How the results depend on the processing

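All folds of the 90 called genes kept their sign under all 23 alternative fits, and 8 genes were called in each. The counts moved. With 62 up and 28 down as the values reported, the fit to the 9 AMLN libraries gave 13 down, to the 6 Control and DKO libraries 9 up and 6 down, without the trend 25 up and 5 down, and with array weights 192 up and 173 down (weights of 0.517 for DKO 1 and 0.481 for Control 3). Leaving out a library gave 20 to 126 up and 4 to 105 down. The 82 genes called alike in DKO and LiFKO became 50 (9 AMLN libraries), 29 (no trend) and 281 (array weights), and 22 to 171 with a library left out. The 65 genes called on chow and, the same way, in DKO became 24 (no trend) and 181 (array weights), and 21 to 106 with a library left out. The 4 called only in DKO became 1 (no trend) and 30 (array weights), and 0 to 35 with a library left out. Smaller fits have fewer residual degrees of freedom, and the cause of these moves was not tested. DKO 1 had 107 genes departing by over 2, 9 of them among genes above the median, and 735 departing by over 1. The share of genes called up in both with a TFE3 peak of the chow LiFKO list was 95.6% by nearest gene and 46.7% within 1 kb.

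Same-number residual correlations between Control and DKO were 0.045, 0.099 and 0.144, and others -0.123 to 0.066. Residuals around the mean of a small group depend on each other, so these values do not settle whether replicate numbers paired the samples. With a replicate block over 15 libraries, 59 genes rose and 23 fell, and 8 were called only in DKO. With a replicate block over the 9 AMLN libraries, added after the data were seen, 32 rose and 12 fell, 43 were called alike in LiFKO and 1 only in DKO.

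Depth is unknown, so low genes such as Anxa8 and Tuba8 carry an error that cannot be given. Groups of 3 libraries limit which small effects pass the test.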
